A study of Homo sapiens with 12 samples.

Results

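The genes described here are 45 genes whose products act at DNA replication origins and forks and carry no iron-sulfur (Fe-S) cluster. They were chosen by name, were matched by symbol to the Ensembl identifiers of the count table (45 of 45 matched, out of 58735 genes listed), and all 45 had enough reads to be tested among 16891 genes. Their mRNA was measured by RNA-seq of poly(A) RNA in FDX2-iKO ES2 cells. ES2 is an established ovarian carcinoma line. FDX2 is a mitochondrial ferredoxin that takes part in Fe-S cluster assembly. In FDX2-iKO cells the endogenous FDX2 gene is knocked out and an HA-tagged FDX2 that resists the editing is expressed from a TetON promoter, so that FDX2 is made only while doxycycline (Doxy) is in the medium. All 4 conditions carried the knockout and the transgene, and the study used a single clone unless it stated otherwise. The conditions were 20% O2 + Doxy, 20% O2 wo Doxy, 3% O2 + Doxy and 3% O2 wo Doxy, each with 3 biological replicates, or 12 libraries in all. Cells at 20% O2 were grown with or without Doxy for 6 days. Cells at 3% O2 had 4 days of preculture at 20% O2 and then 3 more days at 3% O2, so oxygen and days in culture cannot be told apart in the comparisons between oxygen levels. Removal of Doxy and loss of FDX2 cannot be told apart either, since no cells without the transgene were included.

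Before S phase, the origin recognition complex and CDC6 load the MCM2-7 ring onto DNA with the help of CDT1, and geminin (GMNN) blocks a further round of loading. In S phase, CDC45 and the 4 GINS subunits join MCM2-7 to form the replicative helicase, DNA polymerase alpha-primase starts each strand, and polymerases delta and epsilon extend it, held to the template by the PCNA clamp that the RFC complex loads. Many of these genes are known targets of E2F transcription factors, which are held back by the retinoblastoma family in cells that do not cycle.

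The promoters of these genes were read from RefSeq (GRCh38.p14, 250 bases before to 50 bases after the first listed start) and searched for short sequence words. A promoter was found for 37 of the 45 members, and the entries for MCM4, MCM5, GINS4, POLD3, DSCC1, RPA2, RPA3 and FAM111B were missing. The E2F-type words TTTCCCGC, TTTCGCGC, TTTGCCGC and TTTGGCGC were searched on both strands. At least 1 word was present in 17 of the 37 promoters, or 45.9%, against 3.33% of the 27305 promoters in the RefSeq table and 5.29% of the 11264 promoters of tested genes. The members were chosen as replication genes, many of them known E2F targets, and are no random draw of promoters. Their share describes this list only. The word was not particular to the members. Among related genes read for context, it was in 7 of 31 promoters of further replication genes. It was also in 5 of 11 promoters of E2F and retinoblastoma family genes and 2 of 4 of catalytic or Fe-S-bearing partners. Before the start alone, 11 members (29.7%) held a word, against 2.79% of all promoters and 4.41% of those of tested genes. The plain letters CCAAT were in 22 of the 37 promoters (59.5%, against 35.7% of all promoters), and the letters TTTGAA or TTCGAA were in 2 (5.41%, against 16.6%). A match is only a description of the letters. Windows of 7 of these 11 members are shown as examples of different roles, chosen after their values were seen, so their fold changes say nothing about the word. The capitals mark the E2F-type word or its reverse complement, and all windows are written 5′ to 3′ on the strand of the gene.
MCM6 first window, chr2:135876564-135876615, minus strand: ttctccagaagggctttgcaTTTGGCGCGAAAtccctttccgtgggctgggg
MCM6 second window, chr2:135876502-135876553, minus strand: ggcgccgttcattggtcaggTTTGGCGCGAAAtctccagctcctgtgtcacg
MCM3, chr6:52284889-52284936, minus strand: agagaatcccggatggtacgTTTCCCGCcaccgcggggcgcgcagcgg
GINS2, chr16:85688968-85688995, minus strand: tctcgccgtgGCGGGAAAacggcggccg
PCNA, chr20:5126654-5126701, minus strand: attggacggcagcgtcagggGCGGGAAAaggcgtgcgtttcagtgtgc
LIG1, chr19:48170441-48170468, minus strand: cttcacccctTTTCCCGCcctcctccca
TYMS, chr18:657604-657631, plus strand: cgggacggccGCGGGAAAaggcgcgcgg
UHRF1, chr19:4909477-4909500, plus strand: ccgagttttcGCGGGAAAaaaatc
In MCM6 the same 12 letters occurred in both windows, each made of 2 overlapping words on opposite strands, with first bases at -152 and -90 from the start. In PCNA the word began at -59, in GINS2 at -31 and in LIG1 at -114. The windows of GINS2, LIG1, TYMS and UHRF1 overlapped a stretch that GENCODE 29 marks as untranslated exon, whereas those of MCM6, MCM3 and PCNA did not. The gene, strand and transcript end of that stretch were not checked.

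Each library held between 24958386 and 34313637 counted reads. Levels are given as CPM (counts scaled to a fixed library total) after TMM scaling, and differences as log2 fold changes with their standard errors from edgeR. Counts of FDX2 itself were 2 to 13 in the 12 libraries, below the limit for testing, so FDX2 loss could not be checked in these files. Of the markers, KRT8, KRT18, VIM and PAX8 (8.32 CPM at 20% O2 + Doxy) were detected. EPCAM and WT1 did not reach the limit, nor did the blood and endothelial markers PTPRC, PECAM1 and CD3E, whereas the endothelial marker CDH5 averaged 24.7 CPM in that condition, 26.4 CPM at 20% O2 wo Doxy, 32.0 CPM at 3% O2 + Doxy and 45.1 CPM at 3% O2 wo Doxy. After FDX2 loss KRT18 (-0.55) and VIM (-0.49) were lower at 20% O2 and CDH5 (0.49) was higher at 3% O2 (log2 fold changes). The part of these markers in the results on the members was not tested. Some libraries stood apart from their replicates. The deviation from the condition's mean was read for the genes with the highest GC content (top 25% of the genes read for this). It was 0.26 (log2) in 20% O2 + Doxy replicate 1 and 0.23 in 3% O2 + Doxy replicate 3. In 3% O2 wo Doxy replicate 2 it was 0.14. The lowest values were -0.17 in 20% O2 + Doxy replicate 3 and -0.13 in 3% O2 + Doxy replicate 1. Among the members, CDT1, TK1, POLD2, MCM2, CHAF1A, MCM7, MCM5, LIG1 and UHRF1 have GC-rich transcripts (54.6% to 64.9% GC, members' median 47.5%), and the 4 members with the largest SEs at 20% O2 (CDT1, LIG1, MCM2 and MCM5, 0.12 to 0.20) were among them. A correction for GC content, chosen after seeing the data, was tried as an alternative.

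FDX2 loss at 20% O2 lowered most of the replication genes. Of the 45 members, 36 were lower at an adjusted p under 0.05 and 0 were higher. Of all tested genes, 17.7% were called lower and 17.6% higher. At an unadjusted p under 0.05 there were 37 members past the threshold, beside 7535 of the 16891 tested genes. No member was called higher by DESeq2 either, beside 8.25% of the 32966 genes with a count. Scaling by library totals alone, which moved the median of all genes from 0.01 to 0.13 (log2), called 30 members lower and 2 higher (10.1% and 25.2% of all tested genes). The median log2 fold change was -0.48 over the members and 0.01 over all tested genes. The members ranged from -1.15 for FAM111B to 0.14 for RFC1. In 37 members the 3 wo Doxy libraries all lay below the 3 +Doxy libraries, as they did in 25.8% of all tested genes. In bulk RNA, fewer cells in S phase and less RNA per cell cannot be told apart.

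**Figure D1:**
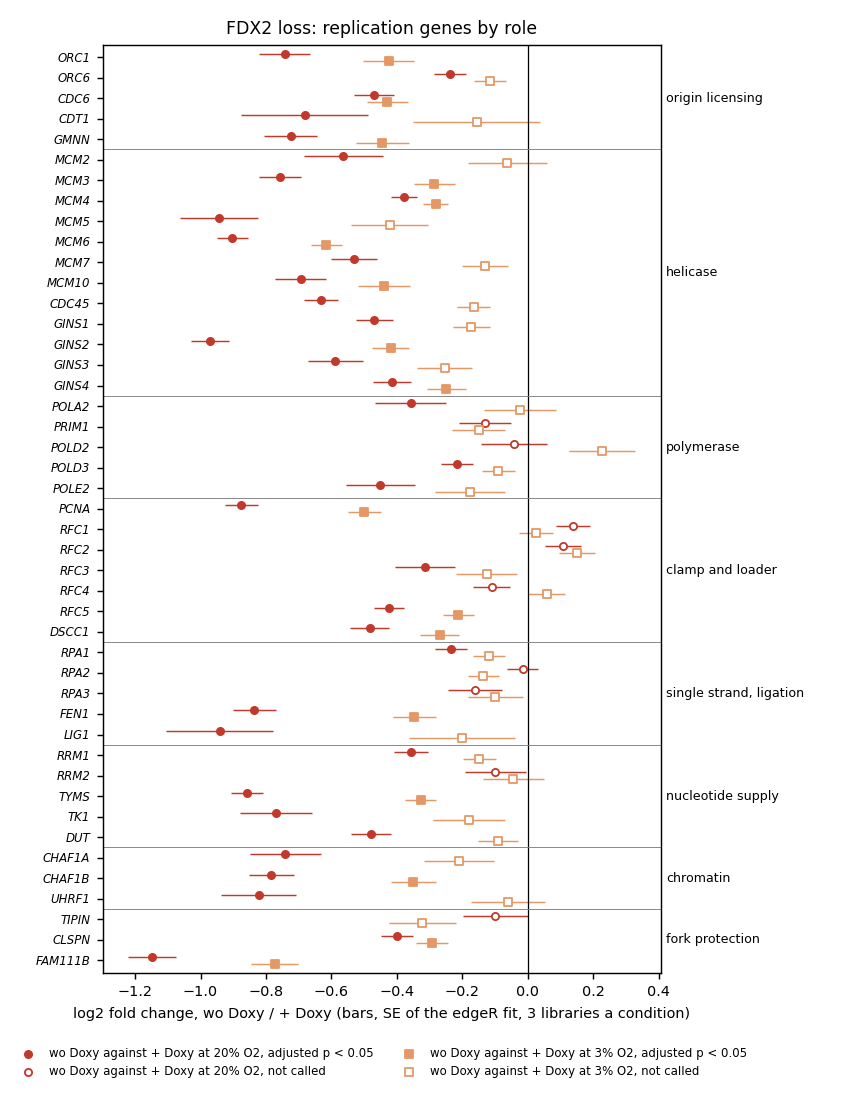
Log2 fold change of each of the 45 members on Doxy removal at 20% O2 (circles) and 3% O2 (squares), with the SE of the edgeR fit over 3 libraries a condition; filled symbols passed an adjusted p of 0.05. At 20% O2, 36 circles are filled and all lie below 0, and at 3% O2 17 squares are filled, also below 0.

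All 5 licensing genes fell at 20% O2. ORC1, the largest subunit of the origin recognition complex (chromosome 1, 52372829 to 52404459 in GENCODE 29 on GRCh38), was at 46.1, 45.6 and 42.8 CPM with Doxy and at 26.9, 27.1 and 26.3 CPM without. The groups did not overlap, and the log2 fold change was -0.74 ± 0.08 (SE, n = 3, adjusted p = 3.7e-05 by edgeR). ORC6, the smallest subunit of that complex, fell least, from 111, 116 and 117 CPM to 98.0, 97.8 and 96.1 CPM (log2 fold change -0.24 ± 0.05). Its 2 groups were narrow and apart. The remaining licensing genes were GMNN, the inhibitor of CDT1 (-0.73), CDT1, the loading factor (-0.68 ± 0.20), and CDC6, the loading ATPase (-0.47 ± 0.06). CDT1 was at 99.5 CPM in 20% O2 + Doxy replicate 1 and at 64.0 and 65.2 CPM in replicates 2 and 3. With the GC trend of each library taken out, its log2 fold change was -0.41.

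The 12 helicase genes fell without exception at 20% O2. GINS2, a subunit of the GINS ring (chromosome 16, 85676198 to 85690073), was at 49.8, 45.9 and 47.1 CPM with Doxy and at 25.1, 23.7 and 23.9 CPM without. This was a log2 fold change of -0.97 ± 0.06 (adjusted p = 7.3e-07 by edgeR), the largest of the role, with the 2 groups far apart. MCM4, a subunit of the MCM2-7 ring, fell least of the role, from 417, 420 and 411 CPM to 320, 323 and 316 CPM (-0.38 ± 0.04). Replicates of MCM4 differed by less than 10 CPM within each of these conditions. Between them lay MCM5 (-0.94), MCM6 (-0.90), MCM3 (-0.76), MCM2 (-0.56) and MCM7 (-0.53), the other ring subunits. MCM10 fell by 0.69 on the log2 scale and CDC45 fell by 0.63. The GINS subunits GINS3 (-0.59), GINS1 (-0.47) and GINS4 (-0.41) completed the group. Summed over the 6 ring genes, the level was 1505 ± 95.3 CPM (SD, n = 3) with Doxy and 999.3 ± 26.6 CPM without, or 66.4%. MCM2 shares 23.6% of its exon bases with a neighbouring gene, and GINS4 also shares more than 20%.

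Of the 5 polymerase genes, 3 fell and 2 did not pass the test. POLE2, the second subunit of polymerase epsilon, was at 12.8, 14.9 and 14.7 CPM with Doxy and at 10.4, 10.7 and 9.9 CPM without (log2 fold change -0.45 ± 0.11). All 3 libraries without Doxy were below the 3 with it. POLA2, the accessory subunit of polymerase alpha (-0.36), and POLD3, an accessory subunit of polymerase delta (-0.22), were lower as well. POLD2, another subunit of polymerase delta, was at 200, 165 and 161 CPM with Doxy and at 173, 174 and 165 CPM without. These groups overlapped, and its log2 fold change was -0.04 ± 0.10. PRIM1, the catalytic primase subunit, averaged 26.4 ± 2.11 CPM with Doxy and 24.1 ± 1.16 CPM without, and was not called.

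The clamp fell, and 3 of the 6 genes for proteins that load it were lower with it. PCNA (chromosome 20, 5114953 to 5126626) was at 148, 155 and 158 CPM with Doxy and at 83.4, 86.5 and 81.7 CPM without. The log2 fold change was -0.88 ± 0.05 (adjusted p = 6.4e-07 by edgeR), and the lowest library with Doxy was far above the highest without. RFC1, the large subunit of the clamp loader, was at 166, 185 and 183 CPM with Doxy and at 193, 192 and 203 CPM without. Its 3 libraries without Doxy were the higher ones, but the difference of 0.14 ± 0.05 did not pass (adjusted p = 0.059 by edgeR). The loader subunits RFC5 (-0.42) and RFC3 (-0.31) fell, and RFC2 (56.1 ± 2.09 against 60.4 ± 0.46 CPM) and RFC4 (52.6 ± 2.76 against 48.8 ± 1.07 CPM) were not called. DSCC1, which belongs to an alternative loader, fell by 0.48 on the log2 scale.

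Among the genes for single-stranded DNA and ligation, those that process the lagging strand fell most. LIG1, the ligase that joins Okazaki fragments, was at 57.6, 45.9 and 41.1 CPM with Doxy and at 26.0, 23.6 and 25.7 CPM without (log2 fold change -0.94 ± 0.16). FEN1, the flap nuclease, fell by 0.84 on the log2 scale. Both sets of groups were apart, although LIG1 was spread widely with Doxy. Of the 3 subunits of replication protein A, which coats single-stranded DNA, RPA1 was lower (-0.24) and the others were not called. RPA2 was at 72.8, 77.9 and 75.2 CPM with Doxy and at 75.7, 75.2 and 72.5 CPM without (-0.02 ± 0.05), with the 2 groups overlapping. RPA3 averaged 53.2 ± 4.01 and 47.5 ± 0.55 CPM.

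Nucleotide supply followed the same direction in 4 of 5 genes. TYMS, thymidylate synthase (chromosome 18, 657604 to 673578), had the highest level per length of all members in each condition, 166 RPKM at 20% O2 + Doxy. It was at 417, 406 and 409 CPM with Doxy and at 230, 227 and 222 CPM without, a log2 fold change of -0.86 ± 0.05 (adjusted p = 6.4e-07 by edgeR) with no overlap. TYMS shares 46.6% of its exon bases with TYMSOS and ENOSF1 on the other strand, and the strand setting of the counting was not given in the sources used here, so its value is uncertain. TK1, the cytosolic thymidine kinase, was at 98.5, 76.9 and 74.4 CPM with Doxy and at 49.8, 50.1 and 46.7 CPM without (-0.77 ± 0.11). DUT, which removes dUTP, fell by 0.48 on the log2 scale, and RRM1, the large subunit of ribonucleotide reductase, fell by 0.36. RRM2, the small subunit of that enzyme, was at 132, 160 and 159 CPM with Doxy and at 140, 133 and 148 CPM without. Its groups overlapped, and the log2 fold change was -0.10 ± 0.09.

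The 3 chromatin genes were all lower. UHRF1, which brings DNA methylation to newly made strands (chromosome 19, 4903080 to 4962154), was at 266, 206 and 196 CPM with Doxy and at 127, 124 and 126 CPM without (log2 fold change -0.82 ± 0.11). CHAF1A, the large subunit of chromatin assembly factor 1, was at 126, 102 and 95.9 CPM with Doxy and at 64.8, 66.5 and 62.0 CPM without (-0.74 ± 0.11). In both genes replicate 1 with Doxy was the highest library and the groups were apart. CHAF1B, the middle subunit of the same factor, fell by 0.78 on the log2 scale.

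Fork protection genes split. FAM111B, a protease (chromosome 11, 59107185 to 59127410), was at 42.8, 47.8 and 48.6 CPM with Doxy and at 20.1, 20.8 and 21.8 CPM without. Its log2 fold change of -1.15 ± 0.07 (adjusted p = 1.1e-06 by edgeR) was the lowest of the 45 members, and it was the 1 member that fell by at least 2-fold, which 0.787% of all tested genes did. CLSPN, the checkpoint adaptor claspin, fell by 0.40 on the log2 scale. TIPIN, the partner of TIMELESS at the fork, was at 26.3, 30.7 and 33.0 CPM with Doxy and at 28.3, 26.7 and 29.0 CPM without (-0.10 ± 0.10), with overlapping groups.

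**Figure D2:**
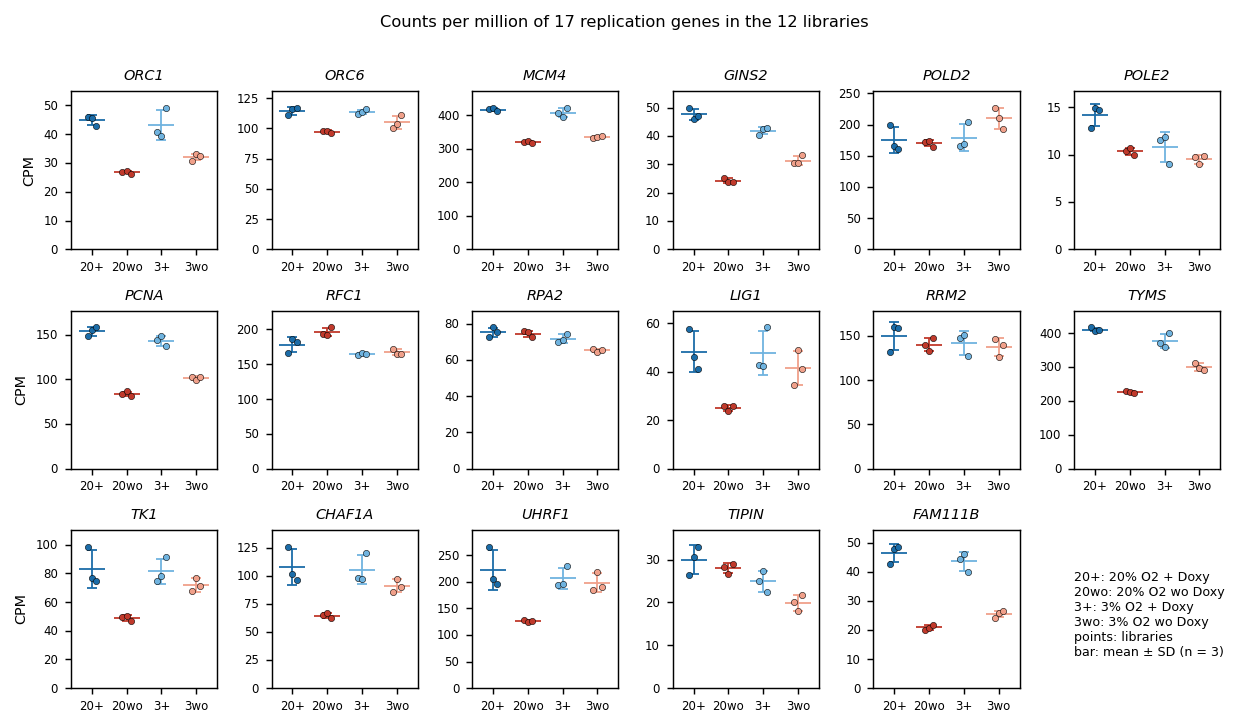
CPM of 17 members in the 12 libraries, with the mean and SD of 3 replicates per condition; 20+ and 20wo are 20% O2 with and without Doxy, 3+ and 3wo are 3% O2. GINS2, PCNA, TYMS, UHRF1 and FAM111B were lower in every 20% O2 wo Doxy library than in any 20% O2 + Doxy library, while POLD2, RPA2, RRM2 and TIPIN overlapped.

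The members with and without an E2F-type word in the promoter were also set side by side at 20% O2. All 17 members with a word were called lower, with a median log2 fold change of -0.59 and a range from -0.97 to -0.31. Of the 20 members whose promoter held no word, 13 were called lower, with a median of -0.39 and a range from -0.84 to 0.14. At 3% O2, 7 of the 17 with a word and 6 of the 20 without were called lower, with medians of -0.20 and -0.16. The response at 3% O2 was called less negative than at 20% O2 for 8 of the 17 and 5 of the 20. Members without a promoter entry, FAM111B among them, are outside this split. Whether the word bears on the response was not tested. Among tested genes that were called lower at 20% O2, members left out, 6.72% of 2322 promoters held a word, against 4.75% of 8905 promoters of the other tested genes.

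**Figure D3:**
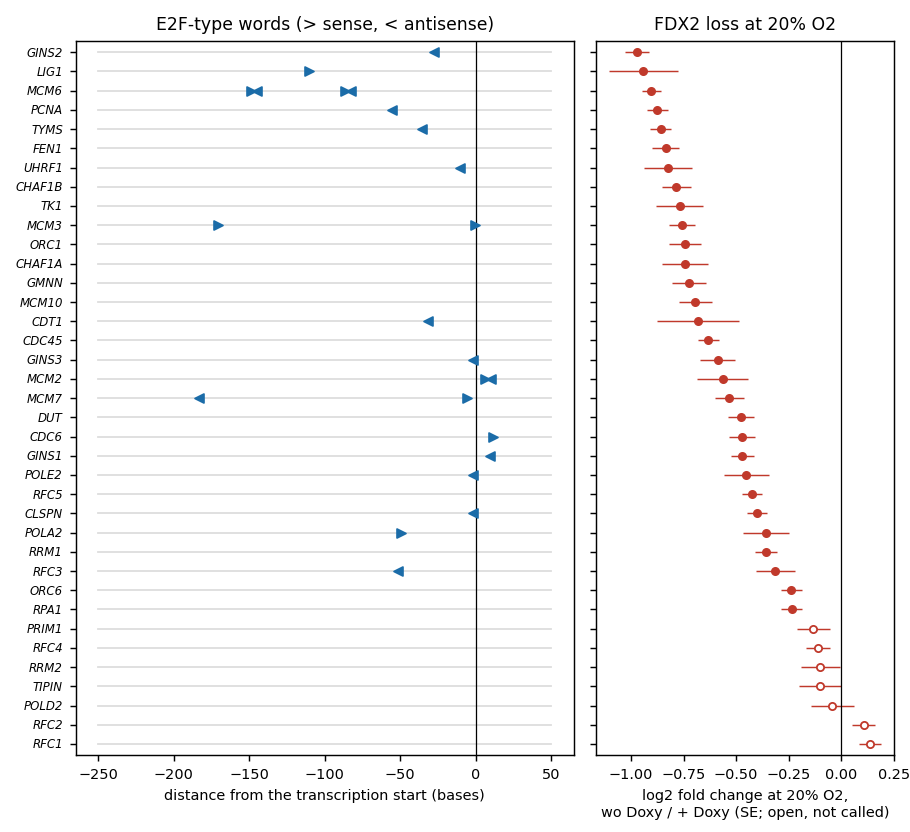
Left, distance from the transcription start (bases) of each E2F-type word in the promoters of 37 members, by strand; right, log2 fold change on Doxy removal at 20% O2 with its SE, in rising order (open circles, not called). Words occur in 17 promoters, and the 7 open circles at the bottom belong to promoters with no word.

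At 3% O2 fewer replication genes responded to FDX2 loss. Of the 45 members, 17 were lower and 0 higher, beside 3.11% of all tested genes called lower and 4.2% higher. There were 28 members past an unadjusted p of 0.05, beside 3901 of the 16891 tested genes. DESeq2 also called 0 members higher, beside 2.44% of the 32966 genes with a count. The median was -0.18 over the members and 0.04 over all tested genes, with members between -0.77 and 0.23. In 29 members the groups did not overlap with the wo Doxy libraries lower, as in 11.2% of tested genes. All 17 were among the 36 called at 20% O2. They were ORC1, CDC6, GMNN, MCM3, MCM4, MCM6, MCM10, GINS2, GINS4, PCNA, RFC5, DSCC1, FEN1, TYMS, CHAF1B, CLSPN and FAM111B. A fit on the 6 libraries at 3% O2 alone called 6 members lower, beside 73 of the 16012 genes it tested. DESeq2 called 26 members lower, beside 3.46% of the 32966 genes with a count.

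FAM111B again had the lowest fold change. It was at 44.5, 46.2 and 40.1 CPM with Doxy and at 24.2, 25.8 and 26.4 CPM without (-0.77 ± 0.07, adjusted p = 0.00025 by edgeR), with no overlap. MCM6 followed at -0.62 ± 0.05 and PCNA at -0.50 ± 0.05. PCNA was at 144, 148 and 137 CPM with Doxy and at 102, 98.6 and 102 CPM without. In both genes the 2 groups were well apart. GINS2 was at 40.4, 42.5 and 42.8 CPM with Doxy and at 30.5, 30.3 and 33.2 CPM without (-0.42 ± 0.06). ORC1 was at 40.7, 39.5 and 49.0 CPM with Doxy and at 30.7, 33.0 and 32.5 CPM without (-0.43 ± 0.08), the library furthest from its replicates being replicate 3 with Doxy. TYMS, at 372, 359 and 399 CPM with Doxy and at 312, 297 and 291 CPM without, had a log2 fold change of -0.33 ± 0.05. MCM4 was at 406, 395 and 421 CPM with Doxy and at 331, 335 and 339 CPM without (-0.28 ± 0.04), a fall close in size to that at 20% O2. CDC6 fell by 0.43 on the log2 scale, from 85.1 ± 1.68 to 63.2 ± 5.81 CPM.

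Several of the genes with the lowest fold changes at 20% O2 did not pass the test at 3% O2. UHRF1 was at 194, 196 and 230 CPM with Doxy and at 185, 218 and 191 CPM without, and these groups overlapped (-0.06 ± 0.11). LIG1 was at 42.7, 42.2 and 58.3 CPM with Doxy and at 34.6, 48.8 and 41.1 CPM without, also overlapping (-0.20 ± 0.16). TK1 was at 74.9, 78.2 and 91.4 CPM with Doxy and at 67.6, 76.9 and 71.4 CPM without (-0.18 ± 0.11). For all 3 genes the high library with Doxy was replicate 3, and the high library without Doxy was replicate 2. CHAF1A missed an overlap by a narrow margin and was not called, at 98.4, 97.5 and 120 CPM with Doxy and 85.8, 97.5 and 89.9 CPM without (-0.21 ± 0.11). TK1 and CHAF1A were called lower at 3% O2 in some alternative fit, while UHRF1 and LIG1 were not called in any. MCM2 averaged 202 ± 29.9 CPM with Doxy and 194 ± 16.4 CPM without, whereas at 20% O2 it had gone from 204 ± 31.9 to 138 ± 3.15 CPM.

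Members that were not called at 20% O2 were not called at 3% O2 either, although RPA2 and TIPIN were called lower there in some alternative fit. RFC1 was at 163, 165 and 164 CPM with Doxy and at 172, 165 and 164 CPM without (0.03 ± 0.05). RPA2 was at 69.6, 71.2 and 74.5 CPM with Doxy and at 65.8, 64.5 and 65.5 CPM without (-0.14 ± 0.05), groups that did not overlap. TIPIN was at 25.1, 27.3 and 22.4 CPM with Doxy and at 20.1, 17.9 and 21.7 CPM without (-0.32 ± 0.10, adjusted p = 0.084 by edgeR). RRM2 overlapped, at 148, 151 and 127 CPM with Doxy and 147, 127 and 139 CPM without (-0.04 ± 0.09). POLD2 was at 165, 169 and 204 CPM with Doxy and at 226, 210 and 193 CPM without (0.23 ± 0.10), again overlapping. POLE2 and ORC6, both called at 20% O2, were not called at 3% O2. POLE2 was at 11.5, 11.8 and 9.0 CPM with Doxy and at 9.7, 9.0 and 9.9 CPM without (-0.18 ± 0.11). ORC6 was at 112, 113 and 116 CPM with Doxy and at 100.4, 104 and 111 CPM without (-0.12 ± 0.05).

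**Figure D4:**
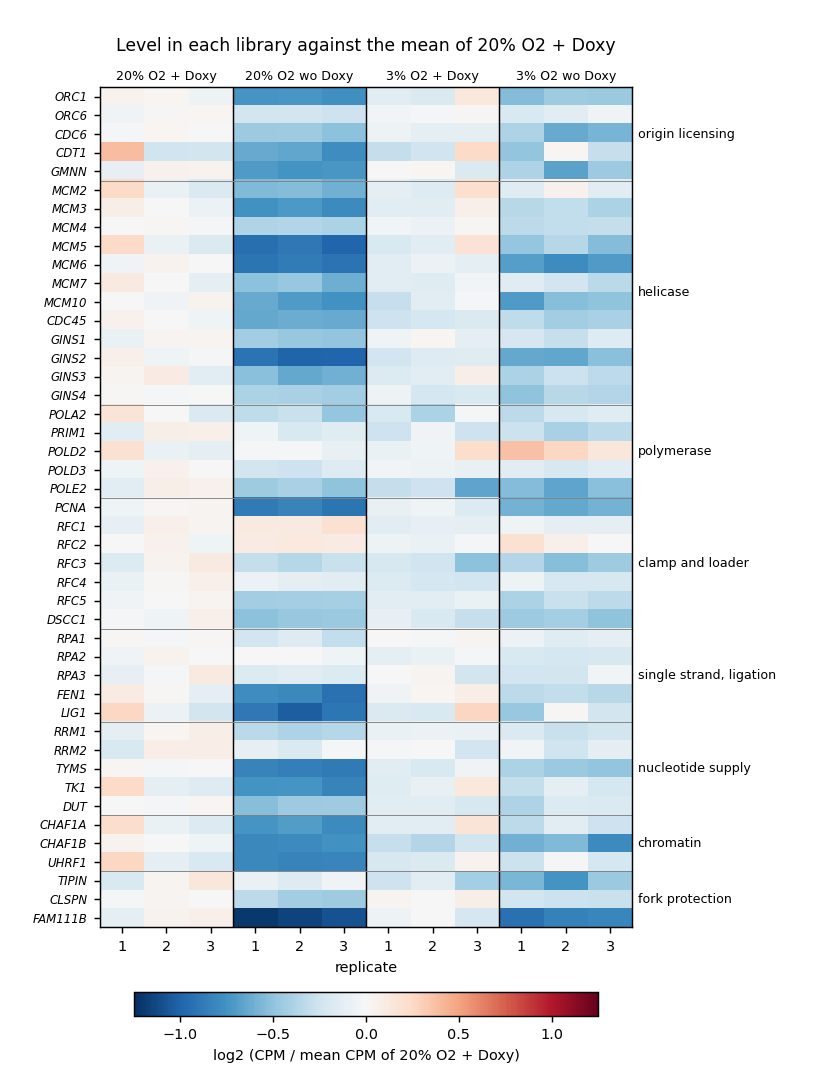
Level of each of the 45 members in each of the 12 libraries, as log2 of CPM over the mean CPM of 20% O2 + Doxy; blue is lower and red is higher. All 12 helicase rows are blue in the 3 columns of 20% O2 wo Doxy, with MCM5, MCM6 and GINS2 the darkest of them, and the rows of RFC1 and RFC2 are pale red there.

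Low oxygen by itself changed no member past the threshold in cells that kept FDX2. Between 3% O2 + Doxy and 20% O2 + Doxy, 0 members were called lower and 0 higher by edgeR (0.385% and 1.63% of all tested genes). At an unadjusted p under 0.05 there were 15 members, beside 2193 of the 16891 tested genes. DESeq2 called 6 lower and 0 higher (0.616% and 1.2% of the 32966 genes with a count). The median was -0.08, with 41 of 45 members below 0. Over all tested genes it was -0.0045, with 8631 of 16891 below 0. The summed level of the members was 94.7% of that at 20% O2 + Doxy. POLE2 was at 76.2% of its level at 20% O2 + Doxy, the lowest of the members, and CLSPN was at 102%, the highest.

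In cells without Doxy, the members were mostly higher at 3% O2 than at 20% O2. Here 20 members were higher and 3 lower (13.9% and 11.9% of all tested genes), with a median of 0.14 beside 0.07 for all tested genes. Scaling by library totals alone called 11 higher and 4 lower (8.69% and 19% of all tested genes). This comparison shares its libraries with both FDX2-loss comparisons. LIG1 had the largest rise, from 26.0, 23.6 and 25.7 CPM to 34.6, 48.8 and 41.1 CPM (0.73 ± 0.16), with no overlap. UHRF1 rose by 0.65 ± 0.11, from 127, 124 and 126 CPM to 185, 218 and 191 CPM. The next were TK1 (0.56), FEN1 (0.51), CHAF1A (0.50), MCM2 (0.49) and MCM5 (0.48). TYMS and MCM3 rose by 0.41 each and GINS2 by 0.37. Smaller rises were called for POLD2, MCM7, FAM111B, PCNA, GINS3, ORC1, CDC45, GINS1, DUT and MCM6 (0.30 to 0.18). The 3 genes that were lower were TIPIN (-0.49), RFC1 (-0.23) and RPA2 (-0.19), which had not been called in either FDX2-loss comparison. CDC6 (65.6 ± 1.62 and 63.2 ± 5.81 CPM) and DSCC1 (22.8 ± 0.46 and 23.2 ± 0.69 CPM) were at like levels at both oxygen levels and were not called. In the 6 libraries without Doxy, same-numbered replicates deviated together, although the labels do not say what a number marks. With the replicate number as a block in these libraries, MCM6 (adjusted p = 0.053 by edgeR) and GINS3 (adjusted p = 0.055) lost the call and CDT1 and PRIM1 gained one. After the GC correction the rises were 0.25 for TK1, 0.31 for CHAF1A, 0.28 for MCM2, 0.30 for MCM5, 0.29 for MCM6, 0.39 for GINS1 and 0.50 for FAM111B, and the calls of MCM7 (0.11), POLD2 (0.08) and RFC1 (-0.09) were lost. Without 20% O2 wo Doxy replicate 2 there were 13 members called higher, and without replicate 3 of that condition 12 (7.97% and 6.79% of all tested genes).

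The response to FDX2 loss itself was compared between the oxygen levels by an interaction term. It was less negative at 3% O2 for 14 members and more negative for 0 (3.21% and 4.08% of all tested genes). DESeq2 also called 0 members more negative (2.79% of the 32966 genes with a count). The median of the difference was 0.28 over the members and 0.05 over all tested genes. Above 0 were 9498 of the 16891 tested genes and 41 of the 45 members. PRIM1, RFC1, RPA2 and TIPIN were the exceptions. Of the 14, 6 were helicase genes (MCM3, MCM6, MCM7, CDC45, GINS1 and GINS2), 3 supply nucleotides (TYMS, TK1 and DUT), 2 act on chromatin (UHRF1 and CHAF1B), and the others were PCNA, FEN1 and FAM111B. UHRF1 had the largest difference, 0.76 ± 0.16 (adjusted p = 0.017 by edgeR). The difference of LIG1, 0.74 ± 0.23, was of like size but did not pass (adjusted p = 0.080), and that of TK1 was 0.59 ± 0.15 (adjusted p = 0.044). After the GC correction the difference of TK1 was 0.28 and was still called, but its call was lost in 8 of the 12 fits that left out 1 library. That of MCM7 was 0.25 after the correction and was no longer called. Of the 14, 8 were still called lower after FDX2 loss at 3% O2. For the licensing genes no difference was called, and that of ORC1 was 0.32 ± 0.11 with a 95% interval from 0.07 to 0.56. For MCM4 the interval ran from -0.02 to 0.22.

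This count depended on single libraries. It was 7 without 20% O2 + Doxy replicate 2 (1.52% of all tested genes). Without replicate 1, 2 or 3 of 20% O2 wo Doxy it was 6, 8 and 6 (1.24%, 1.44% and 1.18%). It was 8 without 3% O2 + Doxy replicate 1, 7 without replicate 2 and 21 without replicate 3 (1.57%, 1.29% and 7.23%). Leaving out 3% O2 wo Doxy replicate 2 gave 8 and replicate 3 gave 9 (1.73% and 1.82%). With the GC trend of each library taken out it was 26. The share of all tested genes then rose as well, from 3.21% to 10.6%. At an adjusted p of 0.05, MCM3, CDC45, GINS2, FEN1 and TYMS were called in every other fit tried. At a threshold of 0.01 there were 4 members called (0.858% of all tested genes), without FEN1 (adjusted p = 0.011 by edgeR) and MCM3 (adjusted p = 0.011).

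The cells without Doxy at 3% O2 were also set against cells with Doxy at 20% O2, a comparison that shares libraries with the others. Of the 45 members, 29 were lower and 0 higher (8.05% and 10.3% of all tested genes), with a median of -0.31 beside 0.05. FAM111B (-0.86), MCM6 (-0.72), CHAF1B (-0.65), PCNA (-0.60) and GINS2 (-0.60) were the lowest. In terms of level, the 45 members summed to 5145 ± 149 CPM at 20% O2 + Doxy and to 3659 ± 42.6 CPM at 20% O2 wo Doxy, or 71.1%. At 3% O2 the sums were 4870 ± 179 CPM with Doxy and 4254 ± 52.4 CPM without, or 82.7% of the level at 20% O2 + Doxy and 87.4% of that at 3% O2 + Doxy. In the libraries with the lowest sums, 20% O2 wo Doxy, the 3 values lay between 3610 and 3686 CPM, and no other condition reached down to them.

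**Figure D5:**
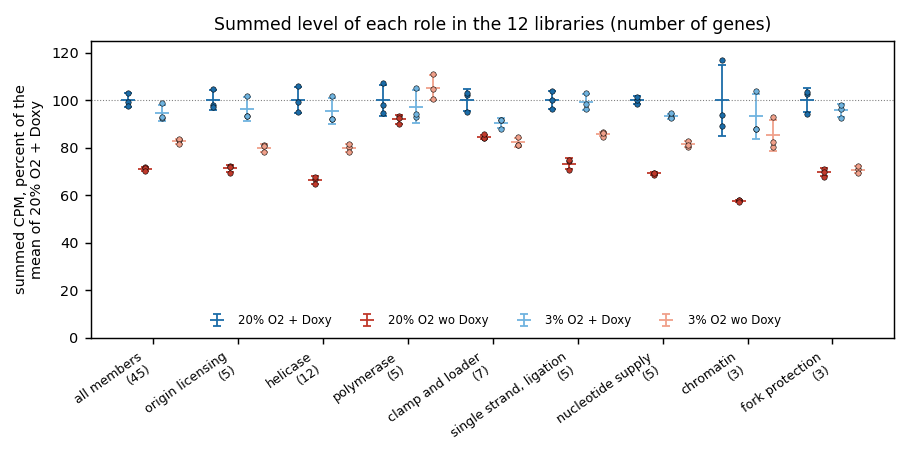
Summed CPM of the genes of each role in each library, as percent of the mean of 20% O2 + Doxy, with the mean and SD of 3 replicates. Without Doxy at 20% O2 the 3 chromatin genes stood at 57.7% and the 12 helicase genes at 66.3%, whereas the 5 polymerase genes stood at 91.9%.

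By role, the summed level at 20% O2 wo Doxy was lowest for the chromatin genes (57.7% of 20% O2 + Doxy) and the helicase (66.3%), followed by nucleotide supply (69.1%), fork protection (69.6%) and licensing (71.3%). At 3% O2 wo Doxy these stood at 85.1%, 80.0%, 81.5%, 70.8% and 80.0%. The sum for fork protection was nearly the same in both conditions without Doxy, but its genes went in different directions. From 20% to 3% O2, FAM111B was called higher (20.9 to 25.5 CPM) and TIPIN lower (28.0 to 19.9 CPM). CLSPN (50.8 to 56.1 CPM) was not called. The clamp and its loaders were at 84.6% and 82.2%, and the polymerase genes at 91.9% and 105%, the latter sum being largely POLD2.

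Genes around these 45 were read for context. The catalytic or Fe-S-bearing partners POLD1 (-0.78), POLE (-0.71), DNA2 (-0.43) and POLA1 (-0.39) fell after FDX2 loss at 20% O2, and PRIM2, the regulatory primase subunit, did not pass (0.02). At 3% O2, 0 of these 5 were called by edgeR, with 2 at an unadjusted p under 0.05, beside 3901 of the 16891 tested genes. Of 37 further replication genes, 17 were lower and 2 higher at 20% O2, with a median of -0.23, and 4 were lower and 0 higher at 3% O2. RECQL4, a helicase needed for origin firing (-0.84), and TICRR, which helps to activate origins (-0.73), were the lowest. POLD4 (0.71) and POLE4 (0.29), small accessory subunits of polymerases delta and epsilon, were the higher ones. POLD4 was at a low level, 2.48 CPM at 20% O2 + Doxy and 4.04 CPM at 20% O2 wo Doxy. Of 13 E2F and retinoblastoma family genes, 6 were lower and 2 higher at 20% O2. The activators E2F2 (-0.97) and E2F1 (-0.83) were the lowest, and the repressor E2F7 (0.42) and the E2F partner TFDP2 (0.37) were higher. E2F2 was at a low level, 1.41 CPM at 20% O2 + Doxy and 0.72 CPM at 20% O2 wo Doxy. At 3% O2, only E2F8 was called among the 13 (-0.34).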

How the data were processed

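Gene expression was measured by RNA-seq of poly(A) RNA from 12 libraries of FDX2-iKO ES2 cells (DNBSEQ-T7, paired reads of 150 bp). The deposited table holds raw read counts per gene that the authors obtained with STAR and featureCounts on GRCh38; versions, annotation and strand setting were not given in the sources used here. For 2 libraries, 20% O2 + Doxy replicates 1 and 2, the submitters state that 1 of the paired read files was lost, but their counts are included. All 58735 identifiers were in GENCODE release 29, and 58207 had a current symbol.

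Counts were analysed with edgeR 4.0.16 (R 4.3.3): genes were kept by filterByExpr (minimum count 10, total 15; 16891 genes), scaled by TMM and fitted by the quasi-likelihood method with 1 mean per condition over all 12 libraries (8 residual degrees of freedom, common biological coefficient of variation 16.3%). The 6 comparisons were Benjamini-Hochberg adjusted over all tested genes at 0.05. RPKM used exon lengths of GENCODE 29. The members, roles and other lists were chosen with earlier results of these data known. All members are named. Values per library are given for the members with the lowest and highest fold change of each role at 20% O2 and the 3 with the largest absolute difference in response. Of the other lists, up to 2 genes in each direction with the largest called change at 20% O2 were named, and the 5 partner genes in full. On simulated counts with 200 genes changed 2-fold, 119 were recovered for FDX2 loss at 20% O2 with 4 false calls, and 94 for the difference with 3. DESeq2 recovered 134 with 39 false calls and 113 with 24. The simulated counts had no GC trend and no pairing of replicates. Only 1 of the 45 members changed by 2-fold at 20% O2, so these figures do not give the recovery of changes as small as most reported here.

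Replicates differed by more than counting noise (median chi-square per gene of 0.749 to 10.9 between pairs, against 0.455 from counting alone). Replicate numbers were taken to pair libraries where all 3 same-numbered correlations of deviations exceed 0.1. This held only for 20% and 3% O2 wo Doxy (0.25 to 0.36, other pairings -0.43 to 0.08). The pairing comes from the data and not from the labels. Between 20% O2 + Doxy and 3% O2 + Doxy, differently numbered libraries correlated up to 0.82, so whether the numbers mark true pairs is not settled. The alternatives were DESeq2 1.42.0 or library totals for scaling, other filters, the DESeq2 test, a stricter threshold, the replicate block, fits on the compared libraries, leaving out each library, and a GC correction (lowess, span 0.3) added after the data were seen.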

Additional observations from a re-analysis of the deposited data

Results flagged for a closer look

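The effect of FDX2 loss differed between 3% and 20% O2 by the interaction term of edgeR in 14 of the 45 members, each time with the less negative log2 fold change at 3% O2. The differences (log2 fold change at 3% O2 minus that at 20% O2) were 0.76 for UHRF1, 0.59 for TK1, 0.55 for GINS2, 0.53 for TYMS and 0.49 for FEN1. They were 0.47 for MCM3, 0.47 for CDC45, 0.43 for CHAF1B, 0.40 for MCM7 and 0.39 for DUT. The smallest were 0.38 for PCNA, 0.37 for FAM111B, 0.30 for GINS1 and 0.29 for MCM6. UHRF1 and TK1 have GC-rich transcripts and were high in 20% O2 + Doxy replicate 1, and after the GC correction their differences were 0.68 and 0.28. Oxygen and days in culture cannot be told apart in these differences.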

How the results depend on the processing

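All 119 calls of a member in a comparison kept their direction in every setting tried, and 0 of them reversed. After FDX2 loss at 20% O2, 29 of the 36 called members were called at 0.05 in every other fit, and ORC6, CDT1, POLA2, POLD3, POLE2, RFC3 and RPA1 were lost in some. At that threshold the same held for 6 of 17 at 3% O2, 9 of 23 in 3% against 20% O2 without Doxy, 5 of 14 for the difference and 21 of 29 in 3% O2 without Doxy against 20% O2 with Doxy. Other members were called only in some alternative fit. At 20% O2 these were PRIM1, RFC1, RFC2, RFC4, RPA3 and TIPIN. At 3% O2 they were ORC6, CDT1, MCM5, CDC45, GINS1, GINS3, RPA1, RPA2, RRM1, TK1, CHAF1A and TIPIN. For the difference there were 14 such members. Causes were not tested.
Each share in brackets is of all genes in that fit. Members higher after FDX2 loss at 20% O2 numbered 2 with library totals (25.2%) and 1 with the GC correction (20.5%), in place of 0 (17.6%). Members lower after FDX2 loss at 3% O2 numbered 26 with DESeq2 (3.46%), 11 at an adjusted p under 0.01 (0.787%) and 6 with the compared libraries alone (0.456%), in place of 17 (3.11%). In 3% against 20% O2 with Doxy, members lower numbered 2 with DESeq2 size factors (0.42%), 2 with library totals (0.349%), 2 with at least 10 counts in every library (0.426%), 6 with DESeq2 (0.616%) and 8 with the GC correction (2.04%), in place of 0 (0.385%). In 3% against 20% O2 without Doxy, members higher numbered 11 with library totals (8.69%) and 11 at 0.01 (5.94%), in place of 20 (13.9%). For the difference, members higher numbered 7 with library totals (1.66%), 9 with no filter (0.925%), 4 at 0.01 (0.858%), 26 with the GC correction (10.6%) and 6 with the replicate block over all 12 libraries (1.37%), in place of 14 (3.21%). Same-numbered replicates deviated together only between the conditions without Doxy. With that block, the other counts of members were 35 lower after FDX2 loss at 20% O2 (14.4%), 14 lower at 3% O2 (1.46%) and 17 higher in 3% against 20% O2 without Doxy (9.76%).
Leaving out 1 library at a time gave 33 to 36 members lower after FDX2 loss at 20% O2 and 13 to 22 at 3% O2. It gave 0 to 1 lower in 3% against 20% O2 with Doxy, 12 to 22 higher and 2 to 4 lower without Doxy, and 6 to 21 higher for the difference. For 3% O2 without Doxy against 20% O2 with Doxy it gave 22 to 32 lower and 0 to 1 higher.
Members that were not called changed sign in 43 of 270 pairs of member and comparison. At 20% O2, POLD2 went to 0.083 with library totals and 0.091 with the GC correction, RPA2 to 0.11, RRM2 to 0.022 and TIPIN to 0.022 with library totals. Leaving out 1 library gave -0.11 to 0.051 for POLD2 and -0.052 to 0.0049 for RPA2. At 3% O2, RFC1 went to -0.0081 with no filter, -0.00057 with DESeq2 and -0.00062 with the compared libraries alone, and leaving out 1 library gave -0.12 to 0.011 for RRM2 and -0.14 to 0.022 for UHRF1. In the difference, library totals gave -5.2e-05 for MCM4 and -0.042 for RRM2, the GC correction gave 0.00023 for RFC1, and leaving out 1 library gave -0.015 to 0.14 for RRM2. Reads from MCM2, GINS4, POLA2, PRIM1, RRM2, TYMS and TIPIN, which share over 20% of their exon bases with other genes, could not be assigned with certainty.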

Other observations

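CDC6, FAM111B and TIPIN took different courses across the 4 conditions (an observation made after their values were seen). FAM111B stood at 45.1% of its level at 20% O2 + Doxy in 20% O2 wo Doxy cells, 93.9% in 3% O2 + Doxy cells and 54.9% in 3% O2 wo Doxy cells. CDC6 stood at 72.2%, 93.6% and 69.5%, so that its level without Doxy was nearly the same at both oxygen levels. TIPIN stood at 93.4%, 83.1% and 66.4%, with its lowest level in 3% O2 wo Doxy cells. UHRF1, by comparison, was at 56.5%, 92.8% and 89.0%.

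Within single complexes at 20% O2, some subunits were called and others were not. In the clamp loader the log2 fold changes of RFC1 (0.14), RFC3 (-0.31) and RFC5 (-0.42) were above and below 0, and RFC1 did not pass the test. In ribonucleotide reductase RRM1 was called (-0.36) and RRM2 was not (-0.10). In polymerase delta POLD1 and POLD3 were lower while POLD4 was higher (0.71). POLD4 averaged only 2.48 CPM at 20% O2 + Doxy and 4.04 CPM at 20% O2 wo Doxy. Whether these subunits differ from each other was not tested.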
